A study of Danio rerio with 17 samples.

Results

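Granulin genes encode progranulin and its shorter relatives, secreted proteins assembled from cysteine-rich granulin modules. The 4 granulin genes measured here, grn1, grn2, grna and grnb, were taken by symbol from the 35117 unique gene identifiers in the count and TPM tables, with grn2 fixed as ENSDARG00000088641. They were followed in 17 RNA libraries of cells that had been picked manually out of adult zebrafish epidermis. MLCs (4 libraries) and cLCs (4) came from fish with a pair of transgenes, hsp70:mCherry-T2a-CreERT2 and mpeg1:loxP-DsRedx-loxP-GFP, keratinocytes (3) from Tg(krt4:lyn-GFP), neutrophils (3) from Tg(lyz:GFP) and T cells (3) from Tg(lck:DsRedx). In the MLC and cLC line the mpeg1 promoter, active in macrophages, drives a DsRedx cassette that Cre recombinase can exchange for GFP, and a heat shock promoter drives the inducible Cre. The cLC and MLC libraries thus share 1 transgenic line, whereas each of the other groups comes from a line of its own, so line and cell type cannot be told apart there. The labels spell out neither MLC nor cLC, and the series text speaks of an mpeg1-positive population that is restricted in place. Replicates of a group came from independent experiments, and how many cells entered each library is not given in the sources used here.

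Full-length progranulin is taken up and carried to the lysosome by sortilin, or together with prosaposin, and cathepsins cut it there into single granulins. In mammals it is made by macrophages, microglia and many epithelial cells, including keratinocytes, and loss of the human gene GRN causes a lysosomal storage disease or frontotemporal dementia, depending on whether both copies or a single copy is lost. Zebrafish have a pair of long forms, grna and grnb, which are the co-orthologues of mammalian GRN, and a pair of short forms, grn1 and grn2, with fewer granulin modules.

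The deposited identifiers were ENSDARG00000089362 for grn1, ENSDARG00000004954 for grna and ENSDARG00000025081 for grnb. A later RefSeq annotation of the assembly GRCz12tu names grn1 and grn2 as grna.1 and grna.2 and lists them as adjacent protein-coding genes, flanked by clxn on one side and cdk6 on the other. An antisense long non-coding RNA, grnas (ENSDARG00000091885), overlaps both of them. In the same annotation grna lies between rundc1 and bcat2 and overlaps ifi35 and the antisense gene grnaas, and grnb lies between si:ch211-40k21.9 and map3k14b. The build behind the deposited files is danRer 10, so no coordinates are given here. The gene lengths implied by the ratio of counts to TPM were 2.07 times that of grn2 for grn1, 5.40 times for grna and 4.02 times for grnb.

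Total counts ran from 5837662 to 24596883 a library, and 4484 to 16921 genes had at least 1 count. In 4 libraries (cLCs replicates 3 and 4, neutrophils replicates 2 and 3) fewer than 6000 genes were detected, against at least 8564 in the other 13, so a zero in those 4 carries less weight. The gene behind each reporter was highest in the group picked by it: krt4 averaged 26069 CPM in keratinocytes, lyz 1823 CPM in neutrophils and lck 622 CPM in T cells, and mpeg1.1 averaged 1276 ± 321 CPM in MLCs against 5012 ± 3298 CPM in cLCs (SD, n = 4 each). Of 11 macrophage markers, 9 had a count in MLCs, where csf1ra and csf1rb were at 0, and all 11 had one in cLCs; their summed level was 872 to 1629 CPM in MLCs, 7071 to 39968 CPM in cLCs, 2.00 to 18.3 CPM in keratinocytes, 1273 to 2242 CPM in neutrophils and 747 to 818 CPM in T cells. In MLCs the sum was nearly all mpeg1.1: 9, 2, 1 and 4 of the 11 had a count in replicates 1 to 4, and mpeg1.1 alone made 862 of 872, 1628 of 1629, all of 1382 and 1234 of 1332 CPM. The list holds the pan-leukocyte gene ptprc, which averaged 760 CPM in T cells, 570 CPM in neutrophils but 0.0999 CPM in MLCs. In neutrophils the list member spi1b was higher than ptprc, at 1555, 757 and 1239 CPM in replicates 1 to 3. In MLCs replicates 1 to 4 spi1b was at 0.399, 0, 0 and 46.4 CPM, and in cLCs it was at 430 to 987 CPM. The markers mpeg1.1 and mfap4 were at 0 in neutrophils. In MLCs mfap4 was nearly absent too, at 0.799 CPM in replicate 1 and 0 in replicates 2 to 4, against 228 to 6990 CPM in cLCs. Neutrophil markers summed to 1565 to 2027 CPM in the T cell libraries, about as high as the T cell markers there (1610 to 2162 CPM), and were mostly srgn, at 1420, 1485 and 1546 CPM in replicates 1 to 3. All 8 of them had a count in T cells replicate 1, but 3 and 2 in replicates 2 and 3, and lyz was at 21.1, 0 and 0 CPM. The T cell markers summed to 487 to 2483 CPM in cLCs, which overlapped the T cell libraries. They summed to 89.1 to 212 CPM in MLCs, 0 to 385 CPM in neutrophils and 0 to 6.10 CPM in keratinocytes. In cLCs the sum came mostly from list members other than lck, and zap70 and cd28 were at 0 there. The gene lck was at 19.8, 21.6, 0.472 and 0 CPM in cLCs replicates 1 to 4, against 584 to 689 CPM in T cells. Keratinocyte markers summed to 3180 to 7051 CPM in MLCs, 4.40 to 129 CPM in cLCs and 33643 to 113294 CPM in keratinocytes. In MLCs replicates 1 to 4, 9, 7, 5 and 6 of these 11 had a count, and krt17 and tgm1 were at 0. The epithelial adhesion gene epcam made 936 of 4579, 4648 of 7051, 2598 of 4167 and 2077 of 3180 CPM. It thus made most of the sum in replicates 2 to 4 but not in replicate 1. In the same order cdh1 was at 749, 1539, 1250 and 807 CPM, and krt4 at 465, 506, 59.98 and 27.16 CPM. The keratin gene krt5 was at 1661, 273, 179 and 186 CPM, and was thus above epcam in replicate 1 only. CPM, a count scaled to library sizes adjusted by TMM, serves to compare groups; TPM, which is scaled for gene length by the authors, serves to compare genes.

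The short form grn2 was among the most abundant transcripts of MLCs and was far lower, or at 0, in the other groups. Its CPM level in MLCs replicates 1 to 4 was 5007, 12826, 18293 and 10639, a mean of 11691 ± 5497 (SD, n = 4). In cLCs replicates 1 to 4 it was 20.0, 199.6, 0 and 0 CPM, a mean of 54.9 ± 96.9 (n = 4). Every MLC library thus lay above every cLC library, and the lowest MLC library was above the highest cLC library by more than an order of magnitude. All 3 keratinocyte and all 3 neutrophil libraries had 0 counts, which allows up to 0.0808 and 0.0473 CPM at 3 counts over the group, a limit that covers counting error only. T cells had 14 counts, all in replicate 1 (0.713 CPM), and 0 in replicates 2 and 3. The mean CPM in MLCs was 213-fold that in cLCs, at least 144762-fold that in keratinocytes, at least 247256-fold that in neutrophils and 49182-fold that in T cells. The value against T cells rests on the 14 counts of replicate 1: its log2 was 15.59, and 17.28 as a bound without that library. Without cLCs replicate 2 the difference between MLCs and cLCs widened from 7.73 to 10.78 on the log2 scale, and without keratinocytes replicate 1 the bound against keratinocytes fell from 17.14 to 16.07. The granulin genes were chosen with these results known, so their levels are given as a description, with no test. In libraries made from pools of cells, fewer cells that express a gene and less of its RNA per cell cannot be told apart.

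Per length, grn2 stood at 9134, 19062, 38684 and 18398 TPM in MLCs replicates 1 to 4, which gave it rank 10, 10, 3 and 7 among the genes of those libraries. Its reads alone made up 0.429 to 1.84% of all gene counts there. Among MLC libraries replicate 1 was the lowest and replicate 3 the highest, in both CPM and TPM, and the coefficient of variation of CPM was 47.0%.

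**Figure D1:**
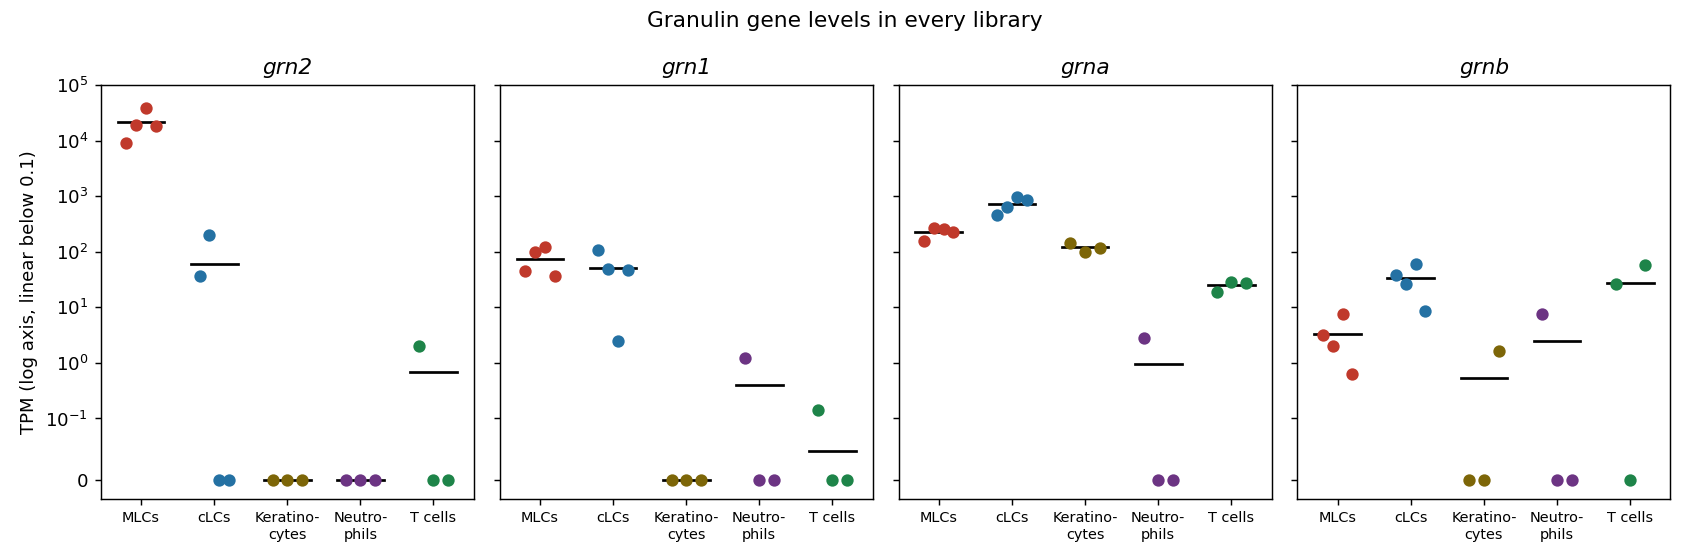
TPM of the 4 granulin genes in each of the 17 libraries, on a logarithmic axis that is linear below 0.1 so that zeros can be shown; points are libraries and black lines are group means. The 4 MLC libraries lie between 9134 and 38684 TPM for grn2, while grna is present in all MLC, cLC, keratinocyte and T cell libraries.

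The grn2 reads of cLCs came from replicates 1 and 2, and other genes that are high in MLCs had reads in those same libraries. As a percentage of the MLC mean, grn2 was at 0.171 in cLCs replicate 1 and 1.71 in replicate 2. For the claudin gene cldnh the same percentages were 0.408 and 2.73, for il22ra2, which encodes a soluble receptor for interleukin 22, 0.350 and 2.83, and for the epithelial adhesion gene epcam 0.106 and 3.44. All 4 of these genes had 0 counts in cLCs replicates 3 and 4. Of them, il22ra2 and cldnh had the highest correlations with grn2 over the same 17 libraries, cLCs included. Their likeness to grn2 in the cLC libraries is thus partly built into that choice, and nothing is read from it. The E-cadherin gene cdh1 was at 0.447% and 2.42% of its MLC mean in replicates 1 and 2 and at 0.405% and 0.0303% in replicates 3 and 4. Other genes had the reverse order: the keratin gene krt5 was at 5.57% in replicate 1, 0.980% in replicate 2, 0 in replicate 3 and 0.139% in replicate 4, and the antisense gene grnas at 4.40% and 1.89% in replicates 1 and 2. Both were also highest in replicate 1 among the MLC libraries, where grn2 was lowest. There krt5 was at 1661 CPM, against 179 to 273 CPM in MLCs replicates 2 to 4. For grnas it was 92.5 CPM, against 32.5 to 71.8 CPM. The percentages use the MLC mean, so they do not take up such differences between MLC libraries. In T cells replicate 1, the library with the 14 grn2 counts, cldnh was at 1.99 CPM and mpeg1.1 at 4.28 CPM, and both were at 0 in T cells replicates 2 and 3. So were marco and mfap4, which are highest in cLCs, and mpx and npsn, which are highest in neutrophils. In replicate 1 these were at 3.87, 3.06, 153 and 111 CPM. With 16921 genes, that library had the most genes with a count. Whether RNA from MLCs contributed to the grn2 level of these libraries was not tested. Of the genes set beside grn2, epcam, cdh1 and krt5 were not particular to MLCs. They averaged 7160, 1159 and 13545.5 CPM in keratinocytes, against 2565, 1086 and 575 CPM (SD of the last 726) in MLCs. By contrast, cldnh, il22ra2 and grnas were at 0 in keratinocytes. The source of the reads of these genes in cLCs was not tested.

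The neighbouring short form grn1 was present in both mpeg1-positive groups at a far lower level. Its CPM in MLCs replicates 1 to 4 was 51.7, 137, 118 and 43.5 (mean 87.7 ± 47.0, n = 4). In cLCs replicates 1 to 4 it was 121, 101, 1.57 and 30.4 CPM (mean 63.5 ± 56.7, n = 4). The libraries of the 2 groups overlapped, and the means differed by less than either SD, with a ratio of 1.38. The sign of this difference was not stable: the log2 difference was 0.47 with all libraries, 0.06 without cLCs replicate 3, 0.98 without cLCs replicate 1 and -0.34 without the 4 libraries of fewer than 6000 genes. Keratinocytes had 0 counts of grn1, neutrophils 26 (all in replicate 1, 1.1 CPM) and T cells 2 (in replicate 1). The mean in MLCs was at least 1086-fold that in keratinocytes and 239-fold that in neutrophils, and the mean in cLCs was at least 786-fold that in keratinocytes. Against neutrophils the log2 difference was 7.90, and 10.18 as a bound without neutrophils replicate 1, the library with all the reads. Neutrophils replicate 1 also held 85.1 CPM of the keratin gene krt5 and 1.90 CPM of epcam, both at 0 in the other neutrophil libraries. The same held for the macrophage markers c1qb (8.12 CPM) and csf1rb (2.54 CPM). By contrast, mpeg1.1, mfap4, csf1ra, marco, c1qa and c1qc were at 0 in all neutrophil libraries. Replicate 1 had 11404 genes with a count, against 5071 and 4556 in replicates 2 and 3. The source of its grn1 reads was not tested.

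Although grn1 and grn2 are adjacent, their ratio differed between the groups that express them. Per length, grn2 was 200, 193, 320 and 505 times grn1 in MLCs replicates 1 to 4. In cLCs replicates 1 and 2 it was 0.341 and 4.09 times grn1, and replicates 3 and 4 held grn1 reads with no grn2 read. The antisense gene grnas was at 92.5, 32.5, 71.8 and 32.8 CPM in MLCs replicates 1 to 4 (mean 57.4 ± 29.8, n = 4), at 2.52 and 1.08 CPM in cLCs replicates 1 and 2, and at 0 in the other 11 libraries. Its counts equalled 0.253 to 1.85% of the grn2 counts in MLCs. The sources used here do not say whether counting used strand, so reads of grnas and of the sense genes that it overlaps cannot be told apart. Across the 17 libraries, which fall into groups, Pearson's r of log2(CPM + 1) was 0.963 between grn2 and grnas, 0.830 between grn2 and grn1 and 0.758 between grn1 and grnas, given as a description.

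**Figure D2:**
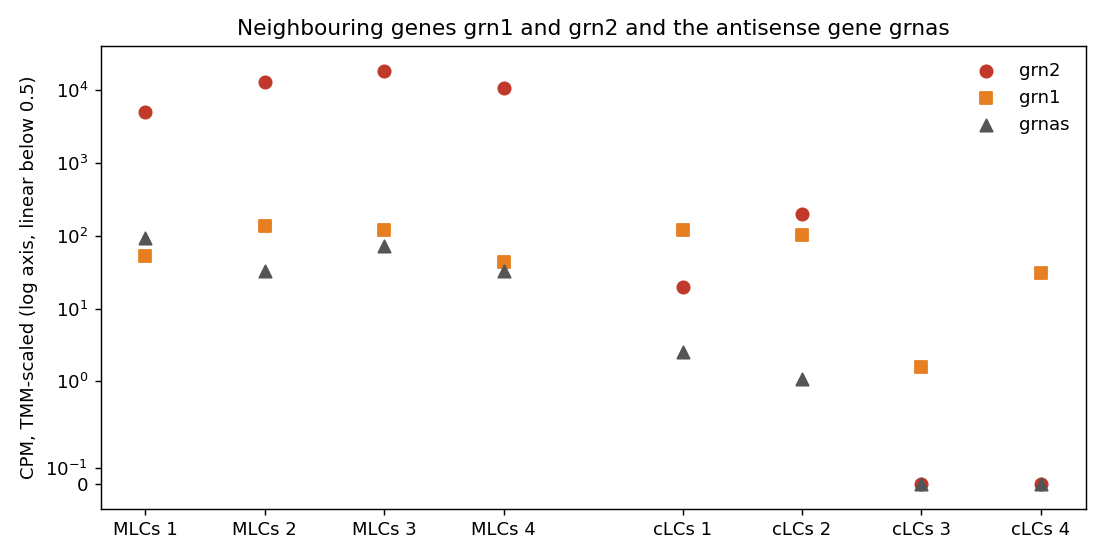
CPM of the neighbouring genes grn2 and grn1 and of the antisense gene grnas in the 8 MLC and cLC libraries, on a logarithmic axis that is linear below 0.5. Every MLC library holds grn2 at 5007 CPM or more, while grn1 overlaps between the 2 groups.

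The long form grna had the opposite order of the mpeg1-positive groups and was the granulin gene found most widely. Its CPM in cLCs replicates 1 to 4 was 1321, 3420, 1603 and 1427 (mean 1943 ± 991, n = 4), and in MLCs replicates 1 to 4 it was 467, 974, 652 and 714 (mean 702 ± 210, n = 4). Keratinocytes replicates 1 to 3 were at 378, 312 and 366 CPM (mean 352 ± 35.4, n = 3) and T cells replicates 1 to 3 at 35.9, 47.0 and 46.2 CPM (mean 43.0 ± 6.19, n = 3). In neutrophils it was at 6.73 CPM in replicate 1 and at 0 in replicates 2 and 3, the 2 neutrophil libraries with few genes. The order was therefore cLCs, MLCs, keratinocytes, T cells and neutrophils, and no pair of groups overlapped, in CPM or in TPM. Such non-overlap in CPM, in the same direction, was common among all tested genes for some pairs. It ranged from 2.55% of them for MLCs below cLCs to 15.9% for keratinocytes above neutrophils and 17.4% for neutrophils below T cells. Mean CPM in cLCs was 2.77-fold that in MLCs and 5.51-fold that in keratinocytes, and mean CPM in MLCs was 1.99-fold that in keratinocytes, 16.3-fold that in T cells and 313-fold that in neutrophils.

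Among the cLC libraries replicate 2 stood apart in CPM for grna, and without it the log2 difference of MLCs from cLCs moved from -1.47 to -1.05. In TPM the cLC libraries stood at 450, 644, 957 and 847, so that replicate 2 was the third highest and the group mean was 724 ± 224 (n = 4). As a share of all gene counts, grna was at 0.111, 0.166, 0.194 and 0.213% in cLCs replicates 1 to 4. The reporter gene mpeg1.1 was also highest in cLCs replicate 2 in CPM, at 9898 against 3010, 3027 and 4113 in replicates 1, 3 and 4. On plain library totals it was higher in replicate 4 (87485 of 14248945 counts) than in replicate 2 (91377 of 19046921). The place of replicate 2 in CPM thus depended on the TMM scaling for both genes. For grna the other groups averaged 227 ± 49.3 TPM in MLCs, 120 ± 23.1 TPM in keratinocytes and 24.8 ± 4.94 TPM in T cells. Against T cells the log2 difference of MLCs depended on the scaling, at 4.03 in TMM-scaled CPM, 3.31 on plain library totals and 3.20 in TPM.

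The other long form, grnb, was low everywhere and uneven between libraries of a group. It was highest in cLCs, at 83.4, 103, 73.9 and 10.95 CPM in replicates 1 to 4 (mean 67.9 ± 39.9, n = 4), followed by T cells, at 36.0, 0 and 71.8 CPM in replicates 1 to 3 (mean 35.9 ± 35.9, n = 3). MLCs replicates 1 to 4 held 6.99, 5.49, 14.3 and 1.45 CPM (mean 7.06 ± 5.38, n = 4). In neutrophils replicate 1 held 13.03 CPM and replicates 2 and 3 held 0, and in keratinocytes replicate 3 held 3.70 CPM and replicates 1 and 2 held 0. Mean CPM in cLCs was 9.61-fold that in MLCs, although MLCs replicate 3 lay above cLCs replicate 4; in TPM, where cLCs spanned 8.73 to 59.3 and MLCs 0.626 to 7.54, the groups did not overlap. In the order of mean CPM, which runs from cLCs through T cells, MLCs and neutrophils to keratinocytes, each pair of neighbouring groups overlapped. The contrast of MLCs with neutrophils rested on neutrophils replicate 1: the log2 difference was 0.70 with all libraries, 6.55 as a bound without that library and -0.88 without the 4 libraries of few genes. The contrast with keratinocytes rested likewise on keratinocytes replicate 3, at 2.52 with it and 5.998 as a bound without it for MLCs, and at 5.78 and 9.26 for cLCs.

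The granulin make-up of MLCs stood apart from that of every other group, while some libraries of the other groups were alike. In MLCs grn2 took 98.4 ± 0.54% of the summed granulin TPM (range 97.8 to 99.0%, n = 4) and grna 1.24 ± 0.43%. In cLCs grna took 71.1, 69.8, 93.9 and 93.8% in replicates 1 to 4 (mean 82.2 ± 13.5%), while grn1 averaged 6.97 ± 7.12%, grn2 6.95 ± 10.4% and grnb 3.92 ± 2.45% (SD, n = 4). The grn2 share was 5.81, 22.0, 0 and 0% in replicates 1 to 4, and its mean was 1.94% without replicate 2; that of grn1 was 3.61% without replicate 1. Keratinocytes were almost purely grna, at 99.6 ± 0.77% (n = 3). In T cells the remainder was mostly grnb: grna took 40.6 and 32.4% in replicates 1 and 3 and grnb 54.7 and 67.6%. T cells replicate 2 held grna only, as did keratinocytes replicates 1 and 2. The single neutrophil library with any granulin read, replicate 1, was 64.6% grnb, 24.8% grna and 10.6% grn1, from a summed level of 11.5 TPM. Measured as shares of granulin counts, which favour long transcripts, grn2 still took 92.9% in MLCs and grna 6.28%.

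The ratio of the pair of long forms varied widely within groups. In TPM, grna was 33.9 to 365 times grnb in the 4 MLC libraries and 11.8 to 97.0 times in the 4 cLC libraries, whereas it was 0.742 and 0.479 times grnb in T cells replicates 1 and 3 and 0.384 times in neutrophils replicate 1. The MLC and cLC libraries overlapped, keratinocytes replicate 3 was at 73.7 times, and T cells replicate 2 held 828 grna counts with no grnb count. The summed granulin level was 21626 ± 12500 TPM in MLCs (0.934 to 3.91% of all TPM), 869 ± 166 in cLCs, 120 ± 23.1 in keratinocytes, 53.0 ± 28.5 in T cells and 3.84 ± 6.65 in neutrophils. With grn2 left out, the order of MLCs and cLCs turned, at 306 ± 84.7 TPM against 809 ± 188 TPM, and the libraries of those 2 groups did not overlap with or without grn2.

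**Figure D3:**
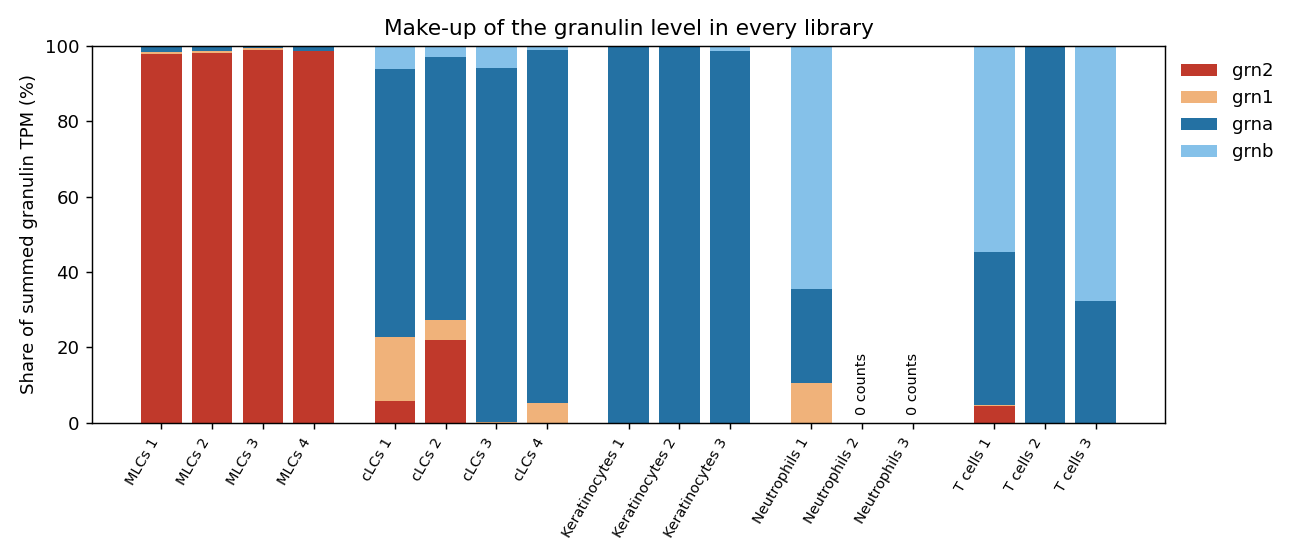
Share of each granulin gene in the summed granulin TPM of every library, as stacked bars from 0 to 100%; neutrophils replicates 2 and 3 had 0 granulin counts. MLC bars are almost wholly grn2 (97.8 to 99.0%), keratinocyte bars almost wholly grna, and T cells replicates 1 and 3 are mostly grnb.

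All 4 granulin genes passed the filter on low counts, and 15247 genes did so in all. Among the 4, grn2 had every MLC library above every cLC library, as had 7.80% of all tested genes, and grna had every MLC library below every cLC library, as had 2.55%. Against keratinocytes, neutrophils and T cells, all MLC libraries were above for 3 of the 4 genes each time (grn2, grn1 and grna), where the shares over all tested genes were 12.0%, 13.4% and 11.0%. For cLCs against keratinocytes it was also 3 of 4 (grn1, grna and grnb), where 4.77% of tested genes behaved so. These contrasts are among those on which the genes were chosen, so nothing is read from the counts.

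The genes whose pattern over the 17 libraries was most like each granulin gene differed between the 4, by Pearson's r of log2(CPM + 1) and with no test, since libraries fall into groups. Nearest to grn2 were il22ra2 (r = 0.998), cldnh (0.998), prom2 (0.994), gucy2c (0.988) and stard10 (0.985). All 5 had 0 counts in keratinocytes and neutrophils; il22ra2 averaged 3052 ± 1898 CPM in MLCs against 24.3 ± 41.7 CPM in cLCs, and the guanylate cyclase gene gucy2c 150 ± 55.6 and 2.98 ± 3.48 CPM. Nearest to grn1 were the kinase gene akt3a (0.955), the Toll-like receptor gene tlr2 (0.950), the interleukin subunit gene il12bb (0.943), cyb561a3a (0.936) and the chemokine gene ccl35.1 (0.930). Like grn1, tlr2 was close in MLCs and cLCs, at 58.4 ± 32.8 and 55.4 ± 65.0 CPM.

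Nearest to grna were cd74a (0.984), which encodes the invariant chain of MHC class II, the cathepsin gene ctsh (0.960), the second invariant chain gene cd74b (0.954), epdl1 (0.945) and the sugar phosphate transporter gene slc37a2 (0.943). The order of cd74a was that of grna: it averaged 44029 ± 32657 CPM in cLCs, 18300 ± 8468 in MLCs, 4297 ± 146 in keratinocytes, 984 ± 257 in T cells and 9.84 ± 17.05 in neutrophils. For grnb the nearest genes were less alike, from tmem86a (0.842) and spg11 (0.821) to rock2a (0.812), cdc27 (0.811) and rhebl1 (0.810). Between the granulin genes themselves r was 0.646 for grn1 and grna, 0.459 for grn2 and grna, 0.444 for grna and grnb, and 0.130 for grn2 and grnb.

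Genes for carriers and proteases of progranulin, and for lysosomal proteins and protease inhibitors more broadly, were followed as 4 lists of 101 symbols. Of these, 94 were found and 87 passed the filter. The lists were receptors and trafficking, processing proteases and inhibitors, lysosomal hydrolases and activators, and lysosomal membrane proteins and regulators. They are called progranulin network genes below, a name for the lists and not a tested tie of each member to progranulin. Each of the 87 genes was tested in a fit across all 15247 genes with edgeR's quasi-likelihood test, at a Benjamini-Hochberg adjusted p under 0.05. The lists too were chosen with earlier results of these data known, so counts of calls and medians are given as a description. Between MLCs and cLCs, the groups that differ in grn2, 0 of the 87 genes passed in either direction, where 0.0131% of all tested genes passed as higher and 0.157% as lower in MLCs. At an unadjusted p under 0.05 there were 3 higher and 19 lower in MLCs (7.23% and 5.57% of all tested genes). DESeq2 called 3 higher and 6 lower (4.24% and 3.34%) of 86, and limma on log2(TPM + 1) 3 higher and 12 lower (5.49% and 2.91%) of 86. The median log2 fold change of the 87 was -1.43, against 0.13 over all tested genes, and 70 had a fitted value below 0. The gene ctsd, which encodes cathepsin D, stood at 82.6 ± 43.9 CPM in MLCs against 2830 ± 2461 CPM in cLCs (edgeR adjusted p = 0.0584, lower in 4 of 4 MLC libraries). It passed on RLE size factors (edgeR adjusted p = 0.0374), with DESeq2, with no filter and in 4 other settings. It did not pass with at least 10 CPM in 3 libraries (0.0590) or in a fit of only the 2 groups (0.0542). In the 17 fits that left out 1 library, the edgeR adjusted p of ctsd ran from 0.0274 to 0.2355. Without MLCs replicate 1, 2, 3 or 4, 0 network genes passed, where 8, 1, 3 and 0 of all genes did.

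Of the further genes in that contrast, the legumain gene lgmn averaged 675 ± 295 CPM in MLCs against 11561 ± 18389 CPM in cLCs (edgeR adjusted p = 0.310), and ctsla, which encodes cathepsin L, 11.8 ± 16.6 and 539 ± 582 CPM (edgeR adjusted p = 0.339). The lgmn difference rested on cLCs replicate 2, with a log2 fold change of -4.10 with it and -1.83 without it, and lgmn passed with no filter (edgeR adjusted p = 0.00185) and without the 4 libraries of few genes (0.0133). The gene ctsla passed with limma (adjusted p = 0.0147 and 0.0398 at the 2 pseudocounts) and with the replicate block (edgeR adjusted p = 0.0386). The prosaposin gene psap averaged 1406 ± 859 CPM in MLCs against 8330 ± 7602 CPM in cLCs (edgeR adjusted p = 0.194), against 364 ± 180 in keratinocytes, 249 ± 157 in neutrophils and 213 ± 45.5 in T cells. Between MLCs and cLCs psap passed with DESeq2 (adjusted p = 0.0362) and with limma (adjusted p = 0.0107 and 0.0117). The sortilin gene sort1b was measured in every group, at 132 ± 80.9 CPM in MLCs, 89.4 ± 79.9 in cLCs, 212 ± 132 in keratinocytes, 156 ± 93.8 in neutrophils and 183 ± 66.5 in T cells, while its paralogue sort1a had 210 counts in cLCs, at most 1 count in any other group, and did not pass the filter. TMEM106B, a lysosomal membrane protein whose human gene modifies the risk of GRN-linked dementia, is represented by tmem106ba, at 34.8 ± 13.1 CPM in MLCs against 24.7 ± 26.0 CPM in cLCs, and by tmem106bb, at 15.8 ± 5.44 and 16.1 ± 18.1 CPM. For sort1b, tmem106ba and tmem106bb the means of MLCs and cLCs lay within 1 SD of each other.

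Against keratinocytes, 3 of the 87 genes passed, each higher in MLCs, where 1.44% of all tested genes passed as higher and 0.472% as lower; the median log2 fold change was 0.49 against 0.30 over all genes. The lysosomal membrane gene laptm5, known from blood cells, was at 728 ± 181 CPM in MLCs against 0.0684 ± 0.118 CPM in keratinocytes, where it had 4 counts, all in replicate 1 (edgeR adjusted p = 0.0001037); the fitted log2 fold change was 12.99, and 16.46 without that library. The acid phosphatase gene acp5a was at 289 ± 101 CPM in MLCs with 0 counts in keratinocytes, at least 3582-fold (edgeR adjusted p = 0.00207). The gene gm2a, which encodes the GM2 activator of ganglioside breakdown, was at 3159 ± 850 CPM in MLCs against 140 ± 69.1 CPM in keratinocytes, 22.6-fold (edgeR adjusted p = 0.0155). The call of gm2a was lost without any of the 3 keratinocyte libraries (adjusted p = 0.0747 to 0.1), whereas those of laptm5 and acp5a held in all 17 fits that left out 1 library.

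Against neutrophils, 6 of 87 network genes passed, each higher in MLCs (1.53% of all tested genes passed as higher and 0.367% as lower), with a median log2 fold change of 1.77 against 1.08. They were 3 genes of the protease list and 3 hydrolases or activators. The cathepsin gene ctsh was at 239 ± 160 CPM in MLCs and the Kunitz inhibitor gene spint2 at 1058 ± 399 CPM, each with 0 counts in neutrophils (edgeR adjusted p = 0.000975 and 0.00842). The cathepsin K gene ctsk was at 104 ± 42.9 CPM against 2 counts, the fucosidase gene fuca1.1 at 163 ± 59.5 CPM against 1 count, and the sphingomyelinase gene smpd1 at 20.9 ± 12.4 CPM against 0 counts (edgeR adjusted p = 0.00922, 0.0143 and 0.0394). The 6th, gm2a, was at 124 ± 90.3 CPM in neutrophils, 25.5-fold below MLCs (edgeR adjusted p = 0.0166). The call of smpd1 was lost in 9 of 17 fits that left out 1 library (adjusted p = 0.0530 to 0.134), with limma on log2(TPM + 1) (0.0690) and in a fit of only the 2 groups (0.0593). In the 17 fits fuca1.1 and gm2a each lost their call in 2 and ctsk in 1, all without neutrophils replicate 2 or 3. Without the 4 libraries of few genes neutrophils are left with 1 library, whose spread is assumed to be that of the other groups. There ctsh and spint2 kept their call, while ctsk, fuca1.1, gm2a and smpd1 did not pass, at fitted log2 fold changes of 11.01, 11.66, 3.85 and 11.28 (edgeR adjusted p = 0.130, 0.231, 0.138 and 0.362). Leaving out 1 library gave 12 calls of network genes without neutrophils replicate 1, 2 without replicate 2 and 3 without replicate 3. Over all genes the same fits gave 214, 64 and 107 calls, against 290 with all libraries.

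Against T cells, 4 network genes passed, each higher in MLCs (0.774% of all tested genes passed as higher and 0.433% as lower), with a median log2 fold change of 1.70 against -0.09 over all genes. They were gm2a at 33.8 ± 7.10 CPM in T cells (93.5-fold, edgeR adjusted p = 0.0103), spint2 with 0 counts there (adjusted p = 0.0128), acp5a with 15 counts (adjusted p = 0.0199) and ctsk with 18 counts (adjusted p = 0.0313). None of these 4 calls held without T cells replicate 2 or without replicate 3. Over all genes those fits gave 2 and 20 calls, against 184 with all libraries. The call of ctsk was also lost without MLCs replicate 2, 3 or 4 (edgeR adjusted p = 0.0606 to 0.161 over its 5 lost fits of 17).

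**Figure D4:**
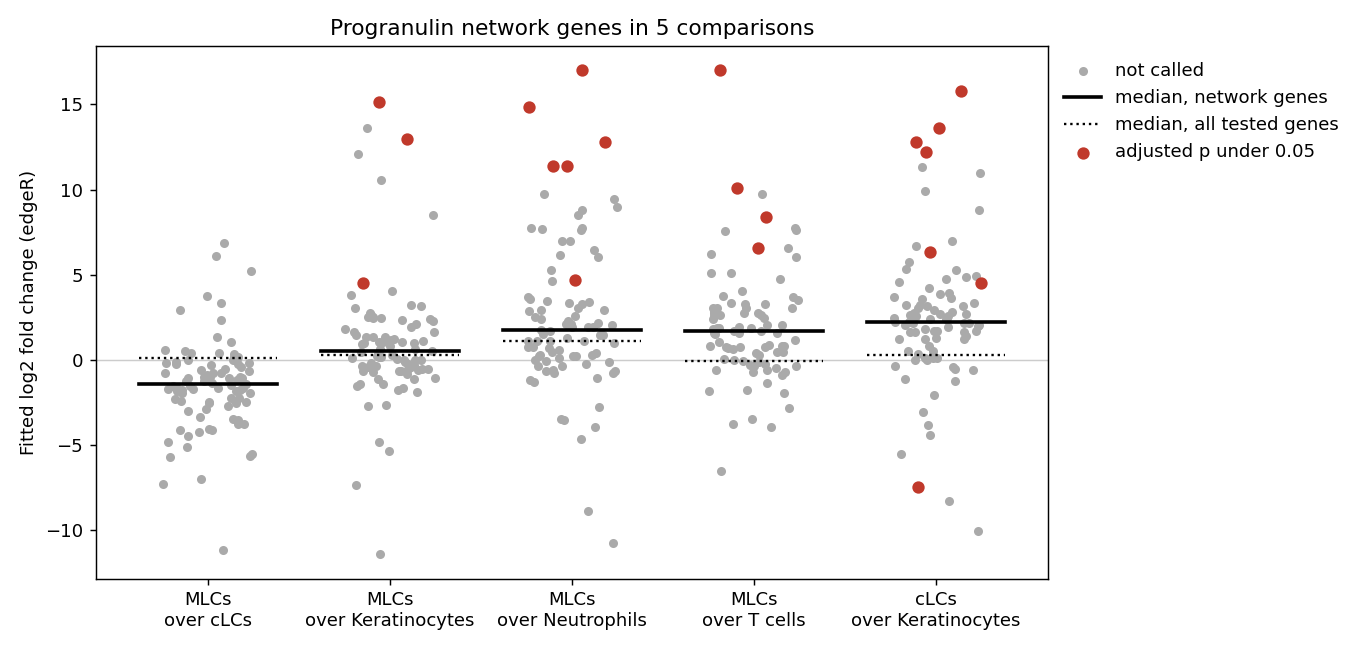
Fitted log2 fold change (edgeR) of the 87 tested progranulin network genes in 5 comparisons; red points passed at an adjusted p under 0.05, solid lines are the medians of these genes and dotted lines the medians of all 15247 tested genes. The median lies at -1.43 for MLCs over cLCs and at 2.22 for cLCs over keratinocytes.

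Between cLCs and keratinocytes, 6 network genes were higher in cLCs and 1 was lower (2.02% and 1.35% of all tested genes), and the median log2 fold change was 2.22 against 0.26. As in MLCs, laptm5 (648 ± 303 CPM in cLCs, edgeR adjusted p = 8.09e-05) and acp5a (459 ± 208 CPM, edgeR adjusted p = 0.001405) were higher; the comparisons share the keratinocyte libraries. Cathepsin D and prosaposin transcripts were higher as well, ctsd 80.5-fold over 35.2 ± 26.5 CPM in keratinocytes and psap 22.9-fold (edgeR adjusted p = 0.00895 and 0.00900). Of the MiT transcription factors, which switch on lysosomal genes in mammals, tfec was at 100 ± 44.0 CPM in cLCs with 0 counts in keratinocytes (edgeR adjusted p = 0.0336) and tfeb at 207 ± 152 CPM against 1 count (edgeR adjusted p = 0.0407). The inhibitor gene spint2 fell, at 8.95 ± 11.8 CPM in cLCs and 1559 ± 278 CPM in keratinocytes (edgeR adjusted p = 0.0353). In fits that left out 1 library, laptm5 and acp5a kept their call throughout, tfeb lost it in 9 of 17 fits (adjusted p = 0.0532 to 0.147), tfec in 7 (0.0501 to 0.142), spint2 in 4, ctsd in 2 and psap in 1. Only 4 network genes passed without cLCs replicate 1 or 2 or keratinocytes replicate 1 or 3, and 3 without keratinocytes replicate 2. Calls over all genes fell in those fits too, from 514 to 302, 320, 226, 232 and 198 in that order. In a fit of only the 2 groups 5 network genes passed, while psap (edgeR adjusted p = 0.0554) and spint2 (0.0768) did not.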

How the data were processed

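The 17 libraries were grouped by title, with 1 library as 1 replicate. Complementary DNA of picked cells was amplified by SMART-seq2 and sequenced as paired reads, per the labels' protocols. The submitters' processing notes name STAR, featureCounts and the build danRer 10; those sources give no version, annotation or strand setting. The authors deposited raw counts for each Ensembl gene and, in a separate table, TPM scaled for gene length. Of 35572 lines, 455 repeat an identifier, and 1 line was kept for each of 35117 identifiers.

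The main test was edgeR 4.0.16 (R 4.3.3) on the counts (TMM factors, filterByExpr by group leaving 15247 genes, quasi-likelihood fit of all 17 libraries with 1 mean per group, Benjamini-Hochberg adjusted p under 0.05). The common biological coefficient of variation was 2.025, and the fit was checked on simulated counts. DESeq2 1.42.0, limma 3.58.1, other filters and scalings, 2-group fits and fits without single libraries were the alternatives.

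The members and gene lists were chosen with earlier results of these data known. Granulin levels, shares and ratios were therefore described with mean and SD and no test. A group with 0 counts was given a floor of 3 counts over the group, and such limits cover counting error only. Named besides the members were the 5 genes with the highest Pearson's r to each member (symbols that are not placeholders), up to 4 called genes per network list and direction, 8 fixed network genes (sort1a, sort1b, psap, ctsla, ctsd, lgmn, tmem106ba and tmem106bb) and the reporter genes; other genes of the marker lists, the antisense gene grnas and the epithelial genes set beside grn2 in cLCs were named after their values were seen. RefSeq names and neighbours were matched by symbol or synonym, and for all 4 members the RefSeq name was the same as the name looked up by identifier. Sequences of the granulin genes were not analysed here.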

Additional observations from a re-analysis of the deposited data

Results flagged for a closer look

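In 2 groups of 4 libraries a single library lay farther from the others than is usual for a group of that size, and both times it was cLCs replicate 2. For grn2 it held 199.6 CPM, against 20.0, 0 and 0 CPM in cLCs replicates 1, 3 and 4. For grna it held 3420 CPM, against 1321, 1603 and 1427 CPM. In TPM, where it stood at 644 between 450 and 957, it did not stand apart. Nor did it as a share of all gene counts, at 0.166% between 0.111 and 0.213%, so for grna the mark depended on the TMM scaling. Chance alone marks about 1 in 20 such groups. Macrophage markers summed to 39968 CPM in this library, against 7071 to 9863 CPM in the other cLC libraries, and cldnh was at 139 CPM, against at most 20.8 CPM; the part of either in these levels was not tested.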

How the results depend on the processing

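Counts of called genes moved with the tool and with single libraries; the cause was not tested. For MLCs against cLCs, MLCs against keratinocytes, MLCs against neutrophils, MLCs against T cells and cLCs against keratinocytes, in that order, edgeR called 26, 291, 290, 184 and 514 of all genes. DESeq2 called 1088, 2101, 2749, 1421 and 2756; with no filter it was 322, 636, 674, 498 and 947; limma on log2(TPM + 1) called 1224, 1838, 1298, 2014 and 2060, and limma on log2(TPM + 0.1) 1099, 1711, 1343, 1676 and 1882. Fits of only the 2 groups called 52, 1120, 609 and 1020 in the MLC comparisons. Without the 4 libraries of fewer than 6000 genes, which was added once the data had been seen, the counts were 157, 1070, 188, 784 and 1017. The share of calls that were higher moved from 7.7% to 56.0% with DESeq2 for MLCs against cLCs and to 65.4% and 68.7% with limma, and from 75.3% to 47.0% and 52.4% with limma against keratinocytes. For MLCs against T cells it moved from 64.1% to 41.6% and 49.9% with limma, and for cLCs against keratinocytes from 59.9% to 36.0% and 37.3%.

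Of the network genes, edgeR called 0, 3, 6, 4 and 7 in the same order. RLE factors gave 2 in the first; DESeq2 gave 9, 8, 17, 16 and 19; no filter gave 5, 6 and 10 in the first 3; limma gave 15, 9, 15, 14 and 27 on log2(TPM + 1) and 10, 9, 16, 10 and 20 on log2(TPM + 0.1). Fits of the 2 groups gave 2, 5 and 13 against cLCs, keratinocytes and T cells, and the libraries with 6000 genes or more gave 6, 6, 2, 11 and 16. In fits that left out 1 library, edgeR called 0 to 48, 110 to 394, 64 to 497, 2 to 304 and 198 to 705 of all genes and 0 to 2, 2 to 4, 2 to 12, 0 to 5 and 3 to 9 of the network genes. Of the 20 calls of a network gene, 6 held in all of those fits.

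With the replicate number as a replicate block the counts were 273, 547, 554, 444 and 802 of all genes and 5, 6, 10, 6 and 13 of the network genes. The 31 pairs of libraries with the same number had a median correlation of 0.0102 (-0.0436 to 0.176). Pairs with different numbers had a median of -0.00598 (-0.101 to 0.1095). Between MLCs and cLCs, which share a line, the same-number pairs had 0.176, 0.105, 0.0323 and 0.0434 for replicates 1 to 4. There the pairs with different numbers ran from -0.101 to 0.0493. Whether the numbers pair the MLC and cLC libraries was not tested.

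Granulin level differences (log2) kept their direction in all alternatives but 2, both without the 4 libraries of few genes: grn1 in MLCs against cLCs turned to -0.34 and grnb in MLCs against neutrophils to -0.88. There grn2 in MLCs against neutrophils moved to 16.49, and grna in MLCs against T cells moved to 3.31 on library totals and 3.20 in TPM. Leaving out 1 library gave 7.32 to 10.78 for grn2 in MLCs against cLCs, 16.07 to 17.39 against keratinocytes and 6.37 to 9.82 in cLCs against keratinocytes. It gave 9.01 to 10.31 for grn1 in MLCs against keratinocytes, 7.71 to 13.18 for grna in MLCs against neutrophils, and for grnb 1.91 to 5.998 in MLCs against keratinocytes, 0.10 to 6.55 against neutrophils and 5.20 to 9.26 in cLCs against keratinocytes. On Spearman correlation 3, 2, 3 and 2 of the 5 genes nearest to grn1, grn2, grna and grnb stayed among them.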
